A study of Homo sapiens with 6 samples.

Results

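This section describes 10 genes that ERK signalling switches on and whose products feed back on it, or carry it further, in HCT8 cells with and without GPT1 overexpression. They are the dual-specificity phosphatase genes DUSP4, DUSP5 and DUSP6, the Sprouty genes SPRY1, SPRY2 and SPRY4, the Sprouty-related genes SPRED1 and SPRED2, and the ETS transcription factor genes ETV4 and ETV5. The genes were given as a list of symbols, and all 10 matched 1 row each of the 60664 Ensembl genes counted. HCT8 is a human colorectal cancer line that was grown in DMEM with serum. The first group is 3 libraries labelled as GPT1 overexpression, from HCT8 cells that received a GPT1 plasmid, and the second is 3 libraries labelled as WT, from HCT8 cells that received a control plasmid. They are called GPT1 and control libraries below. GPT1 is alanine aminotransferase in its cytosolic form, and its gene symbol is GPT. The labels give neither the plasmid's promoter, nor the time after transfection, nor the share of cells that took up the plasmid, so each value is an average over transfected and any untransfected cells of a single line. The series asks which signalling pathway GPT1 regulates in this cancer.

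ERK is the last kinase of the RAS, RAF and MEK cascade, which growth factor receptors activate and which mutant RAS or RAF keeps active in many colorectal cancers. Active ERK raises transcription of its own inhibitors. DUSP phosphatases remove the activating phosphates from ERK, Sprouty proteins block the cascade between receptor and RAF, and SPRED proteins bring the RAS-inactivating protein neurofibromin to the membrane. ETV4 and ETV5, 2 of the PEA3 group of ETS factors, activate growth and invasion genes and are transcribed when ERK relieves the repressor Capicua. The transcript levels of these genes are therefore widely used as a readout of ERK activity, although other inputs act on them too.

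Promoter windows, from 250 bases before to 50 bases after the transcript start, are shown for the 2 genes that fell furthest, DUSP6 and SPRY4, and for SPRY2, which did not pass the test. They are RefSeq sequences on GRCh38.p14, read 5′ to 3′ on the gene's strand, which is the minus strand for all 3. Capitals mark GGAA or its complement TTCC, the core of the sites that ETS factors bind. DUSP6 lies at chr12:89352452-89352751, SPRY4 at chr5:142324198-142324497 and the most upstream of 3 SPRY2 windows at chr13:80341077-80341376.
DUSP6: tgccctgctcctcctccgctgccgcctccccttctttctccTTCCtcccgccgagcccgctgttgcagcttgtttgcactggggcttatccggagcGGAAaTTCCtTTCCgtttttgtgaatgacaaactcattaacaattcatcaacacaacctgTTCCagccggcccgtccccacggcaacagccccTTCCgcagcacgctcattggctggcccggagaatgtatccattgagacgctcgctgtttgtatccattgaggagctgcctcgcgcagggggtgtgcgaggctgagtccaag
SPRY4: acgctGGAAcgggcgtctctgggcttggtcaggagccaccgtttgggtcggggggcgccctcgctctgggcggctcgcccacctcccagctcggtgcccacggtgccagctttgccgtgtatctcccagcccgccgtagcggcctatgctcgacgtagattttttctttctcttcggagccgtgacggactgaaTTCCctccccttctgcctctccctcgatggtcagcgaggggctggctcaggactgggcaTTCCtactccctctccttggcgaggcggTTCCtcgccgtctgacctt
SPRY2: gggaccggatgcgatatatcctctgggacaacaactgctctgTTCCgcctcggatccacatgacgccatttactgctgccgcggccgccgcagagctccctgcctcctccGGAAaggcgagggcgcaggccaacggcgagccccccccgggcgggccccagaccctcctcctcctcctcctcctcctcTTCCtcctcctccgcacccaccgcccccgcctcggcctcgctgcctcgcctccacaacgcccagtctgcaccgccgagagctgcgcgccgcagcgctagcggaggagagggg
The DUSP6 window held 6 cores, the SPRY4 window 4 and the printed SPRY2 window 3, while the other SPRY2 windows held 5 and 4. The last 50 bases of the printed SPRY2 window lie in 0 GENCODE 29 transcripts, those of the DUSP6 and SPRY4 windows in 1 each. Over all 35116 RefSeq windows the median was 3 (quartiles 2 and 5), and 95.5% held at least 1, so a core is no mark of these genes. Longer motifs were searched on both strands, of which CCGGAAG contains the core itself. The ETS site CCGGAAG, the AP-1 site TGANTCA, the CRE TGACGTCA and the SRF CArG box had no match in these 3 windows. Nor had TGAATGAA or TGAATGGA, the only forms of the Capicua site searched. Other forms of that site were not searched, so whether these windows hold a Capicua site was not tested. Of all windows, 10.3% held the ETS site, 7.71% the AP-1 site, 1.85% the CRE and 1.29% the CArG box. The 2 Capicua forms occurred in 2.63%. Among the 10 windows found for 6 of the genes, CCGGAAG occurred once, in the downstream window of SPRY1 at position -67 from the start. TGANTCA occurred at 2 places, both in the window of SPRED2 at chr2:65366729-65367028, at positions -6 and 35. The last 50 bases of that window lie in 0 GENCODE 29 transcripts. The other SPRED2 window, whose last 50 bases lie in 1 transcript, had no TGANTCA match.

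The libraries held 30370654 to 31513656 counts with GPT1 and 21255655 to 32487217 in the controls, and 17638 genes were tested. GPT had 105529, 96886 and 106063 counts in the GPT1 libraries, against 9, 14 and 3 in the controls, so that the labels and the counts go together. Of 13 markers of colorectal epithelium 10 reached the test, EPCAM, CDH1, KRT8 and CDX2 among them, whereas KRT20, CDX1 and GPA33 averaged at most 0.303 CPM (counts scaled to library size) in either group. The summed markers were lower with GPT1, at 565 to 625 CPM against 903 to 1029 CPM in the controls, and 9 of the 10 tested fell. Over all tested genes 14.6% were called lower and 10.5% higher, the shares beside which these marker counts stand. Neural and kidney-line markers summed to 257 to 264 CPM with GPT1 and 458 to 575 CPM in the controls. All 9 reached the test, PAX2, WT1 and LHX1 among them, and 3 fell, NEFL, NEFM and MAP2. In the controls NEFM averaged 292, NEFL 151, PAX2 5.64 and LHX1 2.13 CPM, beside KRT8 at 529, EPCAM at 24.8 and CDH17 at 3.97 CPM. The identity of the line is taken from the labels and was not tested with these markers. Fibroblast markers summed to 21.0 to 23.2 CPM with GPT1 and 22.2 to 26.1 CPM in the controls, with THY1 at 0 in all libraries, 1 of 4 tested genes, LUM, higher and COL1A1 the most abundant. Leukocyte markers summed to 2.70 to 3.14 and 2.16 to 2.70 CPM, with CD3E at 0 throughout and PTPRC at 0 with GPT1, and endothelial markers to 0.444 to 0.955 and 0.188 to 0.282 CPM with no gene abundant enough to test. The part of these marker shifts in the results below was not tested, and in such bulk samples fewer cells of a type and less RNA per cell cannot be told apart.

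To ask whether ERK feedback transcripts moved with GPT1, each gene was compared between the groups in a fit over all 17638 genes. DUSP6 and SPRY4 fell to 20.1% and 31.7% of the control level, and ETV4, ETV5, SPRED1, SPRED2 and SPRY1 fell to between 57.9% and 72.4%. DUSP4, DUSP5 and SPRY2 did not pass. In all, 7 of the 10 genes were called lower by edgeR, DESeq2 and limma voom alike, 9 were lower at an unadjusted edgeR p under 0.05, and 0 were higher by any of the 3 tools or unadjusted. In 8 of 10 all GPT1 libraries lay below all controls. Of all tested genes 14.6% were called lower, 10.5% higher and 22.2% had non-overlapping groups with GPT1 lower. DUSP6 and SPRY4 were past the threshold at no less than a 2-fold fall, as were 3.37% of all tested genes. The median log2 fold change was -0.61 over the 10 genes and -0.02 over all genes. The genes were chosen with results of these data known, so these counts describe the list and do not test it. The number called lower was between 5 and 8 when a single library was left out, and epithelial markers fell in the same libraries.

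**Figure D1:**
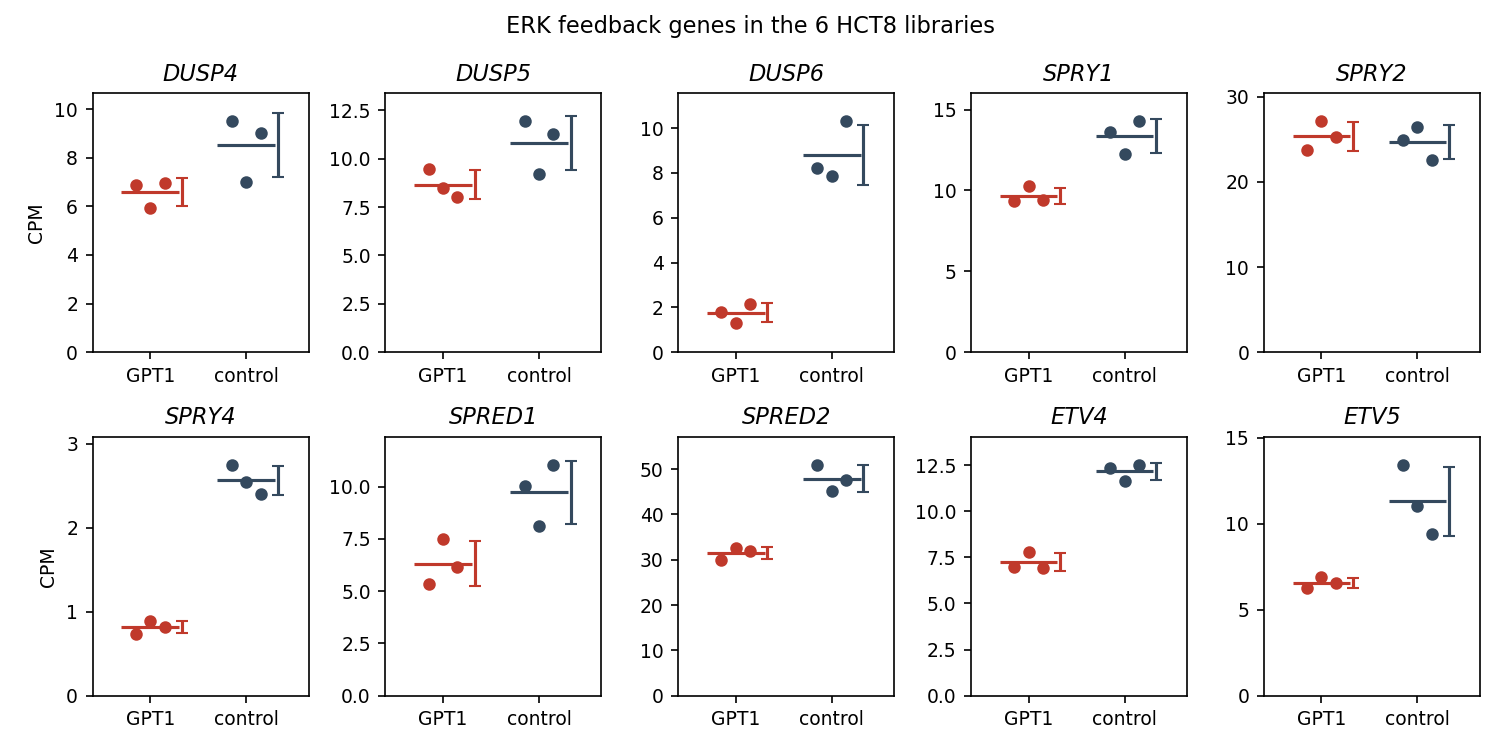
CPM of the 10 genes in each library (points), with the group mean (line) and SD (bar), GPT1 libraries left and control libraries right, n = 3 each, on axes from 0. DUSP6 and SPRY4 are well separated, SPRY2 overlaps over most of its range, and DUSP5 is the only other gene whose groups overlap.

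Among the phosphatases the fall was uneven. DUSP6 (ENSG00000139318, GENCODE 29 on GRCh38, chromosome 12, 89347232 to 89353271, minus strand) encodes a cytoplasmic phosphatase with high selectivity for ERK. It stood at 1.80, 1.31 and 2.16 CPM in the GPT1 libraries, from 56, 40 and 66 counts, against 8.22, 7.87 and 10.3 CPM in the controls, from 269, 248 and 223 counts. The highest GPT1 library lay far below the lowest control, although control replicate 3, the shallowest library, had the highest level. The log2 fold change was -2.32 ± 0.20 (SE; edgeR adjusted p = 5.4e-05), the 59th lowest of all tested genes. The ratio of summed, depth-scaled counts was 0.204 (exact 95% interval 0.171 to 0.242, for counting error alone). An exact permutation test of 3 against 3 libraries cannot give a p below 0.1, so that single-gene statements rest on the fit. An antisense gene (ENSG00000274021) shares 1875 exon bases with DUSP6 but had at most 3 counts in any library.

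DUSP5, a nuclear ERK phosphatase on chromosome 10, averaged 8.66 ± 0.76 CPM with GPT1 and 10.8 ± 1.41 CPM in the controls (SD, n = 3 each). Its GPT1 values of 9.49, 8.48 and 8.00 CPM overlapped the control values of 11.9, 9.23 and 11.3 CPM. The log2 fold change was -0.32 ± 0.14 (SE; edgeR adjusted p = 0.114), and -0.40 with an adjusted p of 0.0253 once each library was corrected for transcript length and GC content. DUSP4, a nuclear phosphatase of ERK and of the stress kinases on chromosome 8, was at 6.88, 5.93 and 6.96 CPM with GPT1 and at 9.50, 7.01 and 9.01 CPM in the controls. These groups did not overlap, but control replicate 2 came within 0.1 CPM of the highest GPT1 library. DUSP4 did not pass (log2 fold change -0.37 ± 0.15, edgeR adjusted p = 0.0958), but did without control replicate 2 (-0.49, adjusted p = 0.0344).

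The 3 Sprouty genes ranged from no detected difference to a fall of over 3-fold. SPRY4 (ENSG00000187678, chromosome 5, 142310427 to 142326455, minus strand), whose product restrains RAS activation after growth factor stimulation, was the least abundant member. It was at 0.740, 0.884 and 0.817 CPM with GPT1, from 23, 27 and 25 counts, and at 2.75, 2.54 and 2.40 CPM in the controls, from 90, 80 and 52 counts. The spread within a group was small beside the gap between groups. The log2 fold change was -1.66 ± 0.20 (SE; edgeR adjusted p = 0.00054), and the ratio of summed counts 0.315 (exact 95% interval 0.239 to 0.411, for counting error alone).

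SPRY1 (chromosome 4, 123396795 to 123403760, plus strand), which acts on FGF and GDNF receptor signalling in development, was at 9.36, 10.3 and 9.41 CPM with GPT1, against 13.6, 12.2 and 14.3 CPM in the controls. It fell modestly, with no overlap (-0.47 ± 0.12, edgeR adjusted p = 0.0214). That call ended without GPT1 replicate 1, GPT1 replicate 3 or control replicate 1 (adjusted p = 0.0818, 0.0896 and 0.0666). SPRY2, the Sprouty member most studied in epithelial cells, was the most abundant of the 3, at 23.7, 27.1 and 25.2 CPM with GPT1 and 24.9, 26.5 and 22.5 CPM in the controls. The groups overlapped over most of their range and the log2 fold change was 0.04 ± 0.11 (SE; edgeR adjusted p = 0.823). From 2337 and 2139 summed counts the ratio was 1.02, with an exact 95% interval of 0.959 to 1.08 for counting error alone.

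Both SPRED genes fell, SPRED1 only without the correction for transcript length and GC content. SPRED2 (ENSG00000198369, chromosome 2, 65310851 to 65432637, minus strand) was the most abundant of the 10 genes in the controls. It was at 29.9, 32.6 and 31.9 CPM with GPT1 and 50.9, 45.1 and 47.6 CPM in the controls, with a wide gap between the groups. The log2 fold change was -0.61 ± 0.10 (SE; edgeR adjusted p = 0.0028). SPRED1 (chromosome 15, 38252326 to 38357249, plus strand), the gene mutated in Legius syndrome, was at 5.34, 7.47 and 6.14 CPM with GPT1 and 10.0, 8.09 and 11.0 CPM in the controls. GPT1 replicate 2 came close to control replicate 2, although the groups did not overlap. SPRED1 passed (-0.62 ± 0.17, edgeR adjusted p = 0.0234), but its call was the least stable of the 7. It ended without GPT1 replicate 1, GPT1 replicate 3 or control replicate 1 (adjusted p = 0.0952, 0.0848 and 0.0694), and the log2 fold change was -0.21 (adjusted p = 0.165) after the correction for length and GC content, under which SPRED2 was at -0.58 and still passed. With a longest transcript of 7780 bases and 38.9% GC, SPRED1 is the longest and most AT-rich of the 10 genes.

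ETV4 and ETV5 fell together. ETV4 (ENSG00000175832, chromosome 17, 43527844 to 43579620, minus strand) was at 6.98, 7.80 and 6.93 CPM with GPT1 and 12.3, 11.6 and 12.5 CPM in the controls. The groups lay far apart, and the log2 fold change was -0.75 ± 0.12 (SE; edgeR adjusted p = 0.0029). ETV4 overlaps DHX8, on the other strand, by 68 exon bases. DHX8 had a log2 fold change of 0.07 (edgeR adjusted p = 0.555). ETV5 (ENSG00000244405, chromosome 3, 186046308 to 186110318, minus strand) was at 6.27, 6.88 and 6.53 CPM with GPT1 and 13.4, 11.0 and 9.43 CPM in the controls. Its GPT1 libraries were tightly grouped and its controls widely spread, without overlap. The log2 fold change was -0.79 ± 0.15 (SE; edgeR adjusted p = 0.0061).

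**Figure D2:**
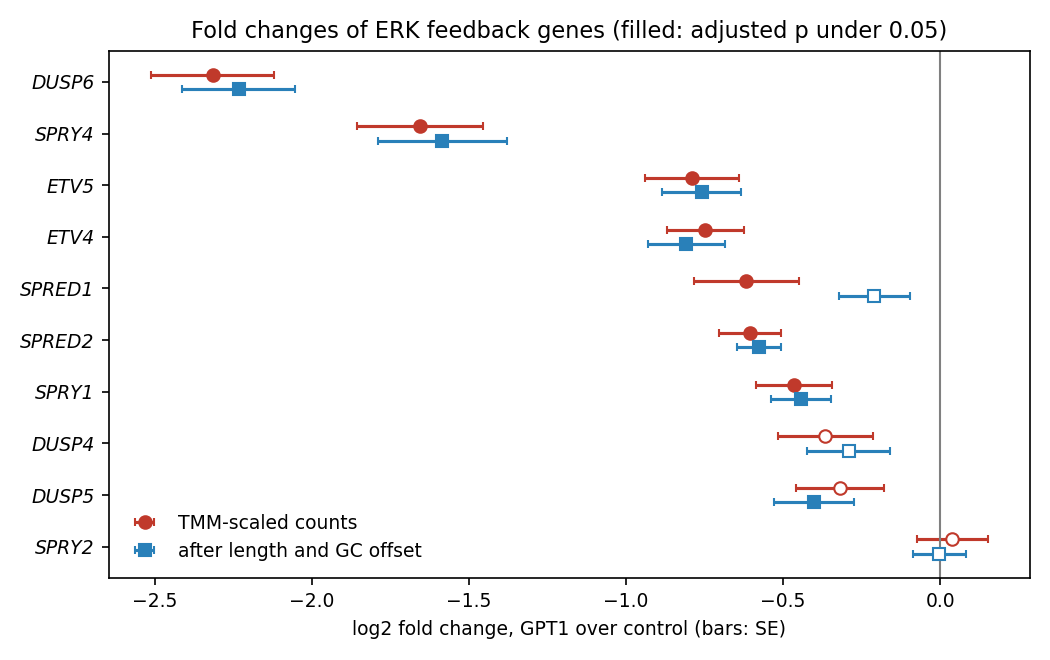
Log2 fold change of GPT1 over control with its SE, from TMM-scaled counts (circles) and after the length and GC offset (squares), filled where the adjusted p was under 0.05. DUSP6 and SPRY4 lie furthest left under both, SPRED1 loses its call under the offset, and DUSP5 gains one.

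Levels can be compared between genes only per length, and were set out as CPM per kilobase of the longest transcript. With GPT1 the order was SPRY2 (9.36 CPM per kilobase), SPRED2 (7.68), SPRY1 (3.71), DUSP5 (3.39), ETV4 (2.98), ETV5 (1.60), DUSP4 (1.19), SPRED1 (0.812), DUSP6 (0.399) and SPRY4 (0.152). In the controls it was SPRED2 (11.7 CPM per kilobase), SPRY2 (9.10), SPRY1 (5.13), ETV4 (5.01), DUSP5 (4.23), ETV5 (2.75), DUSP6 (1.999), DUSP4 (1.54), SPRED1 (1.25) and SPRY4 (0.479). Thus SPRY2 stood above SPRED2 with GPT1 and below it in the controls, and DUSP6 stood below SPRED1 with GPT1 and above DUSP4 in the controls. Neighbours whose libraries overlapped were SPRY1 and DUSP5, and DUSP5 and ETV4, with GPT1, and SPRY1 and ETV4, ETV5 and DUSP6, and DUSP4 and SPRED1 in the controls. All other neighbours were separated in every library of their group. Per kilobase of all exons merged, SPRY1 was at 2.44 with GPT1 and 3.37 in the controls, below DUSP5 at 3.31 and 4.14. In the controls ETV4 (3.37) then also stood below DUSP5, and DUSP4 (1.172) just below SPRED1 (1.176), so these places in the order depend on the length used. The order of SPRY2 and SPRED2 was as above.

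Ratios between 2 members in the same library do not depend on library size or scaling, and were used to compare members of a family directly. The log2 ratio of DUSP6 to DUSP4 counts was -1.92, -2.16 and -1.68 in the GPT1 libraries and -0.21, 0.17 and 0.19 in the controls, a difference of -1.97. DUSP6 to DUSP5 shifted by -2.02. The log2 ratio of SPRY4 to SPRY2 was -4.97, -4.91 and -4.92 with GPT1 and -3.17, -3.38 and -3.22 in the controls, a difference of -1.68, and that of SPRY1 to SPRY2 shifted by -0.51. In these 4 ratios the groups did not overlap. The log2 ratio of SPRED1 to SPRED2 was -2.33 ± 0.18 with GPT1 and -2.31 ± 0.19 in the controls (SD, n = 3 each). It rests on uncorrected counts, and with the length and GC correction the log2 fold changes of the 2 genes parted (-0.21 for SPRED1 and -0.58 for SPRED2). That of ETV4 to ETV5 was 0.14 ± 0.05 with GPT1 and 0.12 ± 0.27 in the controls. Exact two-sided permutation tests gave p = 0.1 for each of the first 4 ratios, the least that this design can give, and 0.7 and 0.9 for the SPRED and ETV ratios. Adjusted over the 6 ratios these were 0.15, 0.84 and 0.90, so no ratio passed 0.05.

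**Figure D3:**
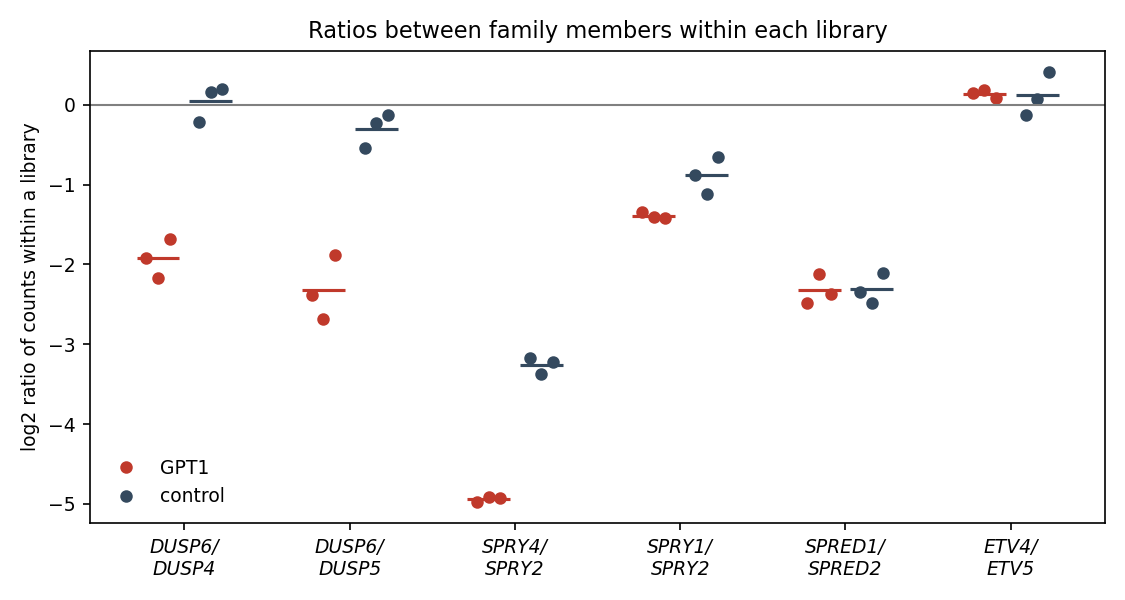
Log2 ratio of the counts of 2 members within each library (points, group mean as a line), GPT1 left of control, n = 3 each. The DUSP6 and SPRY4 ratios separate by 1.68 to 2.02 on the log2 scale, whereas the SPRED and ETV pairs overlap between the groups.

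The genes with the most similar profiles were sought for the 3 members with the smallest adjusted p, as the smallest root mean square difference between centred log2 CPM over the 6 libraries. Only tested genes with a mean of at least 5 CPM and a symbol other than a clone-type or antisense name were candidates. SPRY4 itself lay below that level, so nearer genes of low abundance would not be seen. For SPRY4 the nearest gene was PHLDA1, a pleckstrin-homology gene that ERK induces, at a difference of 0.047. PHLDA1 was at 2.86, 3.41 and 3.01 CPM with GPT1 and at 9.93, 9.46 and 9.47 CPM in the controls. TXNIP, an inhibitor of thioredoxin, and the quinone reductase gene NQO1 followed at 0.129 and 0.131. For DUSP6 the nearest were KRT19 (0.177), a simple-epithelium keratin, the serine protease gene KLK10 (0.183) and GPX2 (0.208), a gastrointestinal glutathione peroxidase. For SPRED2 they were HIP1 (0.039), NCAM1 (0.042) and PPP2R2C (0.042), which encode an endocytic adaptor, a neural adhesion molecule and a regulatory subunit of phosphatase 2A. These genes were picked for a profile like that of a member that fell, so their own falls are no further observation.

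The other genes of the pathway were grouped by role. Of the 7 remaining typical MAP kinase phosphatases (median log2 fold change 0.05), 2 rose and 5 did not pass. The share called was 28.6%, all of it higher. Of all tested genes 10.5% were called higher and 25.1% in either direction. The number lower was 0 by edgeR, DESeq2 and limma voom, with 1 at an unadjusted edgeR p under 0.05. DUSP2, a nuclear phosphatase of ERK and p38, rose to 17.9 ± 1.88 CPM with GPT1, against 10.5 ± 2.42 CPM in the controls (log2 fold change 0.76 ± 0.17 SE, edgeR adjusted p = 0.0109). DUSP9, an ERK phosphatase closely related to DUSP6, rose to 48.4 ± 5.45 CPM, against 35.9 ± 4.57 CPM in the controls (0.43 ± 0.12, adjusted p = 0.0297). DUSP9 did not pass without GPT1 replicate 1, GPT1 replicate 3 or control replicate 1 (adjusted p = 0.123, 0.109 and 0.0625). The immediate early gene DUSP1 stood at 134 ± 12.8 CPM with GPT1 and 157 ± 11.0 CPM in the controls (edgeR adjusted p = 0.0965), and passed after the length and GC correction (-0.36, adjusted p = 0.0067). DUSP16 was at 78.9 ± 5.93 and 85.8 ± 5.96 CPM (adjusted p = 0.355).

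Of 16 further negative regulators of receptor, RAS and ERK signalling, 7 fell and 9 did not pass (median -0.41). The share called lower was 43.8%, against 14.6% of all tested genes. The number higher was 0 by edgeR, with 2 at an unadjusted p under 0.05, and 1 each by DESeq2 and limma voom. ERRFI1, an inhibitor of the EGF receptor that ERK induces, fell to 33.2 ± 2.12 CPM with GPT1, against 59.1 ± 7.39 CPM in the controls (log2 fold change -0.83 ± 0.11, edgeR adjusted p = 0.0011). The RAS GTPase-activating genes NF1 (-0.77 ± 0.16), RASAL1 (-0.77 ± 0.17) and RASA1 (-0.62 ± 0.16) fell as well. RASA1 did not pass without GPT1 replicate 1 or 3 (adjusted p = 0.0796 and 0.0857), and NF1 fell by 0.37 after the length and GC correction. Of the whole list, 4 of 16 genes fell under that correction, beside 2613 of 17436 genes over all. Without GPT1 replicate 1, GPT1 replicate 3 or control replicate 1 the list had 3, 3 and 4 genes called lower. Over all tested genes those 3 leave-out fits called 941, 830 and 1574 lower, against 2572 with every library. CIC, which encodes Capicua, was at 90.9 ± 5.14 and 80.4 ± 10.5 CPM (adjusted p = 0.241).

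In the cascade itself, 7 of 21 genes fell, 1 rose and 13 did not pass (median -0.11). The share called lower was 33.3%, against 14.6% of all tested genes. MAPK3, the gene of ERK1, had a log2 fold change of -0.11 ± 0.09 (edgeR adjusted p = 0.349). MAP2K1, the gene of MEK1, stood at 96.1 ± 0.32 CPM with GPT1 and 97.0 ± 5.83 CPM in the controls. The RAS exchange factor gene SOS1 (-0.60 ± 0.15) and PTPN11 (-0.56 ± 0.15), a phosphatase that promotes RAS activation, fell, and HRAS rose (0.44 ± 0.10). These 3 calls ended without GPT1 replicate 1 or 3 (edgeR adjusted p from 0.0623 to 0.0890). Without either of those GPT1 libraries the edgeR test called 0 genes of the cascade lower, with 7 at an unadjusted p under 0.05. Over all tested genes it called 941 and 830 lower without GPT1 replicate 1 and 3, against 2572 with every library. After the length and GC correction 4 of the 21 cascade genes were called lower, beside 2613 of 17436 genes over all. SOS1 did not pass under it (-0.13, edgeR adjusted p = 0.197).

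Non-member genes of transcriptional signatures of MEK and ERK activity fell in 10 of 16 cases, with 6 not past the threshold (median -0.42). The share called lower was 62.5%, against 14.6% of all tested genes. The number higher was 0 by edgeR, DESeq2 and limma voom, with 1 at an unadjusted edgeR p under 0.05. PHLDA1 (-1.64 ± 0.14), the S100 gene S100A6 (-1.39 ± 0.19), the galectin gene LGALS3 (-0.93 ± 0.16) and CCND1 (-0.54 ± 0.09), which encodes cyclin D1, had the smallest adjusted p (4.7e-05, 0.0010, 0.0042 and 0.0038, edgeR). EPHA4 was at 17.2 ± 0.46 and 18.5 ± 2.15 CPM (adjusted p = 0.562). Without GPT1 replicate 1, GPT1 replicate 3 or control replicate 1, 6 genes of the list passed. Of 19 tested other ETS factors 7 fell and 12 did not pass (median -0.35), so that 36.8% were called lower, against the same 14.6%. The number higher was 0 by the same 3 tools, again with 1 unadjusted. The 2 largest falls were in the epithelial factors EHF and ELF3, at 1.95 ± 0.28 and 1.35 ± 0.10 CPM with GPT1 against 8.17 ± 0.12 and 5.57 ± 0.46 CPM in the controls (log2 fold change -2.06 ± 0.15 and -2.04 ± 0.16). ELK3 (-0.87 ± 0.15) and ETV6 (-0.50 ± 0.13) fell less, the second not without GPT1 replicate 1, GPT1 replicate 3 or control replicate 1 (edgeR adjusted p = 0.0608, 0.0897 and 0.0654). ETV1, the third PEA3 factor, was scarce and was at 1.53 ± 0.19 CPM with GPT1 and 2.60 ± 0.69 CPM in the controls (-0.75 ± 0.23, adjusted p = 0.0370). Without those 3 libraries in turn, 3, 3 and 4 of the factors were called lower. Over all tested genes the same fits called 941, 830 and 1574 lower, against 2572 with every library.

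**Figure D4:**
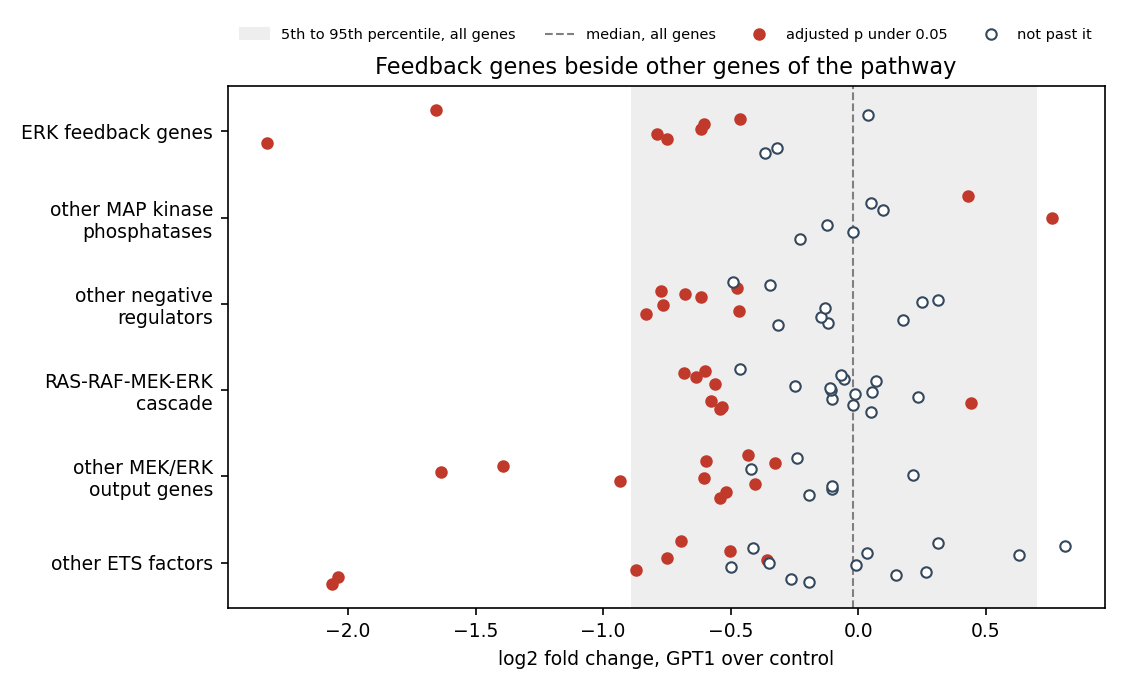
Log2 fold change of GPT1 over control for the tested genes of each list (1 point a gene, filled where the adjusted p was under 0.05), beside the 5th to 95th percentile of all tested genes (grey band, -0.89 to 0.70) and their median (dashed). The 10 feedback genes reach from -2.32 to 0.04, the other MAP kinase phosphatases from -0.23 to 0.76.

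Across all tested genes the log2 fold change followed transcript length (Spearman -0.33 over 17436 genes) and GC content (0.31), genes not being independent. After the offset for both, 3498 of all tested genes were higher and 2613 lower, against 1858 and 2572 without it. Under it, 6 of the 7 falls among the feedback genes remained, as did those of ERRFI1, PHLDA1 and EHF, and the 10 genes' median was -0.51. The share of epithelial transcripts was lower in the same libraries, and its part in these falls was not tested.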

How the data were processed

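The authors deposited unnormalized read counts for Ensembl genes, 1 column per sample. HISAT2 2.0 and GRCh38 are named in the submitters' processing notes. Which program and annotation assigned reads to genes, and whether it used strand, was not given in the sources used here. Reads of overlapping genes therefore cannot be assigned with certainty. Symbols came from a name table that matched 60463 of 60664 identifiers, and coordinates, lengths and GC content from GENCODE 29.

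Testing was done with edgeR 4.0.16 in R 4.3.3, with filterByExpr, TMM factors, the quasi-likelihood F test (two-sided) and Benjamini-Hochberg adjustment over 17638 genes, threshold 0.05. SEs were derived from the F statistic. CPM use TMM-scaled totals, and marker sums use unscaled totals. Ratios had a pseudocount of 0.5. The offset is a smooth fit (mgcv 1.9.3) of each library's log2 deviations on length and GC content of the longest transcript. The fits were also run on counts simulated without a trend in length or GC content, which cannot test the offset. DESeq2 1.42.0 and limma 3.58.1 (voom) served as alternatives.

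The 10 genes and all lists were chosen with earlier results of these data known. Named list genes are the up to 4 with the smallest adjusted p at a mean of at least 1 CPM. One gene that the rule names is not reported here. CIC, MAPK3, MAP2K1, EPHA4, ETV1 and DHX8 were named after their values were seen. ZFP106 was matched by its current symbol. Replicate pairs differed beyond sampling noise (chi-square per degree of freedom 9.98 to 30.8). The highest values, 25.2 and 30.8, were both of pairs with control replicate 3, the shallowest library. No source states separate cultures, so the spread behind the p-values may be only technical.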

Additional observations from a re-analysis of the deposited data

How the results depend on the processing

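DUSP6, SPRY4, SPRED2, ETV4 and ETV5 kept their direction and their call under all 11 alternatives that used every library and with any single library left out, and SPRY1 under the 11. SPRY2, never called, turned to -0.0032 with the length and GC offset and to -0.00181 with that offset and the replicate block, and ranged from -0.0057 to 0.092 when a library was left out. Leaving out 1 library moved the ratio of SPRED1 to SPRED2 between -0.12 and 0.085 and that of ETV4 to ETV5 between -0.10 and 0.16, both turning sign. It gave 830 to 2937 genes lower and 613 to 1970 higher over all genes, the fewest without GPT1 replicate 3, GPT1 replicate 1 (941 and 645) or control replicate 1 (1574 and 991). By list it gave 0 to 8 lower and 0 to 2 higher in the cascade, 3 to 8 lower and 0 to 2 higher among negative regulators, 6 to 10 lower among MEK output genes, 3 to 8 lower among ETS factors and 1 to 2 higher among other phosphatases. The length and GC offset gave 3498 of 17436 genes higher (2943 with the replicate block) and 2613 lower (2300). It gave 4 negative regulators lower (4) and 2 higher (1), 4 cascade genes lower (3) and 2 higher (2), 1 other phosphatase lower (1) and 1 other ETS factor higher. Negative regulators called higher numbered 2 with RLE or upper quartile factors, unscaled totals or the CPM filter, and 1 without a filter, with DESeq2 or with limma voom, against 0. The causes were not tested.

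No source states whether libraries with the same number were paired. Their deviations from the group mean correlated across genes at 0.14, -0.28 and -0.084, and 1 of 6 libraries correlated best with its own number. With 3 libraries per group these correlations cannot show whether a pairing exists. With the replicate number as a block, 2470 genes were lower and 1416 higher and 7 of the 10 feedback genes were lower. At 40 to 66 counts for DUSP6 and 23 to 27 for SPRY4 per GPT1 library, depth limits how closely these 2 falls are sized.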
